A study of Homo sapiens with 36 samples.

Results

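Untreated DLD-1 cells, a human colorectal adenocarcinoma line used as a model of intestinal epithelium, were measured on 12 bead arrays, and these arrays fell widely apart in the signal of FOS. The members were chosen by a measured value: the 12 arrays were ranked by the average bead intensity of the only FOS probe in the table, ILMN_1669523, after quantile normalization over all 36 arrays of the series. The 6 highest (FOS-high) were set against the 6 lowest (FOS-low) across 16027 other genes, and FOS itself was left out of the results. The ranked intensities were 293, 274, 268, 265, 261 and 246 on the FOS-high arrays and 126, 113, 109, 108, 100.1 and 99.6 on the FOS-low arrays. The values just inside and just outside the boundary were thus 246 and 126. The median raw intensity of an array lay between 97.2 and 121 over the series, so the ranked probe was dim on the FOS-low arrays. The order among those 6 and the size of the gap are bounded by that. The 2 sets were made from a measured value and are not groups of the study, so every difference between them is given as a description and without a test.

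All 12 arrays carry the same labels: DLD-1, control, no cigarette smoke extract (CSE). The series also holds 6 DLD-1 arrays exposed to 20% CSE, 12 untreated arrays of Jurkat, a human T lymphocyte leukaemia line, and 6 Jurkat arrays exposed to 20% CSE. The labels give exposures between 2 and 6 h for the series but no time, flask or passage for any single array. No label states separate cultures within a group, so spreads and p-values measure only these samples and may be technical. The array numbers used here follow accession order and only name the arrays.

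FOS is a subunit of the AP-1 transcription factor and an immediate early gene: its transcript is low in resting cells and rises and decays quickly after growth factors, fresh serum or stress. Genes of the same class encode other transcription factors (EGR1, JUNB, ATF3), secreted ligands (HBEGF, CCN1) and feedback inhibitors of MAP kinase signalling (DUSP5, DUSP6). Metallothioneins are small cysteine-rich proteins that bind zinc and copper. The zinc-sensing factor MTF1 turns on their genes through metal response elements (MREs) in their promoters.

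The largest differences between the arrays lay in metallothioneins, which were high on FOS-low arrays, and in immediate early genes, which were high on FOS-high arrays. The 250 bases upstream of 5 genes, each from a group described below, are shown first as examples, from RefSeq on build GRCh38.p14, each on its gene's own strand. They were chosen after the values were known. Capitals mark matches, on either strand, to a motif known for that class of gene: the MRE core (TGCACNC or TGCGCNC) in MT2A (chr16:56608334-56608583, plus strand) and MT1X (chr16:56682220-56682469, plus strand), the serum response CArG box in EGR1 (chr5:138465229-138465478, plus strand), the core of the ATF4 response element (TGATGNAA) in CHAC1 (chr15:40953221-40953470, plus strand), and the E2F site (TTTGGCGC or TTTCCCGC) in GINS2 (chr16:85688955-85689204, minus strand).
MT2A: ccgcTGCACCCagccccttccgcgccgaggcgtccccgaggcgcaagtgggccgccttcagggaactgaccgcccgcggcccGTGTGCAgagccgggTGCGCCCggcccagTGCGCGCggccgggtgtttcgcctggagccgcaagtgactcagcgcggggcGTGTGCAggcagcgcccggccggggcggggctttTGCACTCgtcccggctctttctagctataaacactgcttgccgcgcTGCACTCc
MT1X: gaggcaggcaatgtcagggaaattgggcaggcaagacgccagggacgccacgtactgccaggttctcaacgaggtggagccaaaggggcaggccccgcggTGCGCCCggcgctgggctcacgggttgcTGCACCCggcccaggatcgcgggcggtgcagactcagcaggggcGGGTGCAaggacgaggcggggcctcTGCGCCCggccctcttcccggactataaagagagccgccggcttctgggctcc
EGR1: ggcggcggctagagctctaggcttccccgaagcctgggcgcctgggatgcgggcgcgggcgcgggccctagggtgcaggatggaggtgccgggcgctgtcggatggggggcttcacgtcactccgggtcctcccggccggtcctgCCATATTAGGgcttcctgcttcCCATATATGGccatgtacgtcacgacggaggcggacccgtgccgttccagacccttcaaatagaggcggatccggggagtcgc
CHAC1: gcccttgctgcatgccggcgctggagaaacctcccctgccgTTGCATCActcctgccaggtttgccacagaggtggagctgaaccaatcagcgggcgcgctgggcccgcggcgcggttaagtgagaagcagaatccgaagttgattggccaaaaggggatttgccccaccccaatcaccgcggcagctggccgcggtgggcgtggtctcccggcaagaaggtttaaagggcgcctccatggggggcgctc
GINS2: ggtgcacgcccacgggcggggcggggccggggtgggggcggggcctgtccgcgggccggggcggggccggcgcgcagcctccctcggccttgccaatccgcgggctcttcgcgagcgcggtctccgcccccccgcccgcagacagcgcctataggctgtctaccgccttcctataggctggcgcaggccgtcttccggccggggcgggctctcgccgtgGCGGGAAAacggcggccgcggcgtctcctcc
MT2A held 7 MRE cores and MT1X held 4. Of 35114 promoters of this length in the table, 24.8% held at least 1 such core, 0.37% at least 4 and 0.0313% at least 7. At least 1 core stood in 31.2% of promoters of all genes called higher and in 29.4% of those called lower. Of the 6 metallothioneins called lower, 2 had a promoter in the table, the 2 shown. EGR1 held 2 CArG boxes, and 1.16% of all promoters held at least 1. Of 21 promoters of genes called higher on the immediate early lists described below, only that of EGR1 held such a box. CHAC1 held 1 ATF4 element core, as did 3.14% of all promoters and 1 of 8 promoters of the ATF4 genes called higher, its own. GINS2 held 1 E2F site, found in 1.93% of all promoters. Of the 3 G1/S genes called lower, 2 had a promoter in the table, GINS2 and E2F2, and both held the site. They gave the only 2 matches among 68 promoters of all genes called lower (2.94%). The EGR1 and CHAC1 promoters are thus not typical of their groups. A match is a description of the letters and not a binding site.

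Of the 16027 genes, 109 (0.68%) were at least 2-fold higher on the FOS-high arrays with no overlap between the 6 and 6 values, and 99 (0.618%) were at least 2-fold lower with no overlap. These are called higher and called lower below. The counts depended on the background correction: without it 48 and 24 genes were called, and with the authors' normalized values 42 and 20. Without a limit on size, 353 genes (2.2%) lay higher and 343 (2.14%) lower with no overlap, and 47 genes differed at least 2-fold but overlapped. The median difference over all genes was 0.002 on the log2 scale. Because the arrays were ordered by an immediate early gene of the same RNA, these shares say how large both sets of genes are and nothing about chance.

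Principal components computed without FOS set the 2 sets of arrays apart along the first component, which held 30.7% of the variance. Along the second, with 18.4%, FOS-high arrays 4 and 10 lay far from the other 4 FOS-high arrays, so the FOS-high set is not uniform. These 2 arrays also had the fewest detected probes of the 12, 16630 and 16467. The SD of the log2 difference between 2 arrays over 12683 probes ranged from 0.31 to 0.50 within a set (median 0.46) and from 0.42 to 0.61 between sets (median 0.55). Most arrays had one close neighbour of their own set: 10 with 4, 2 with 3, 5 with 6, 11 with 8, and 9 with 7 differed by 0.31 to 0.33, while arrays 1 and 12 came no closer to any array than 0.39. Array pairs 10 and 4, and 9 and 7, each lay on different BeadChips.

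**Figure D1:**
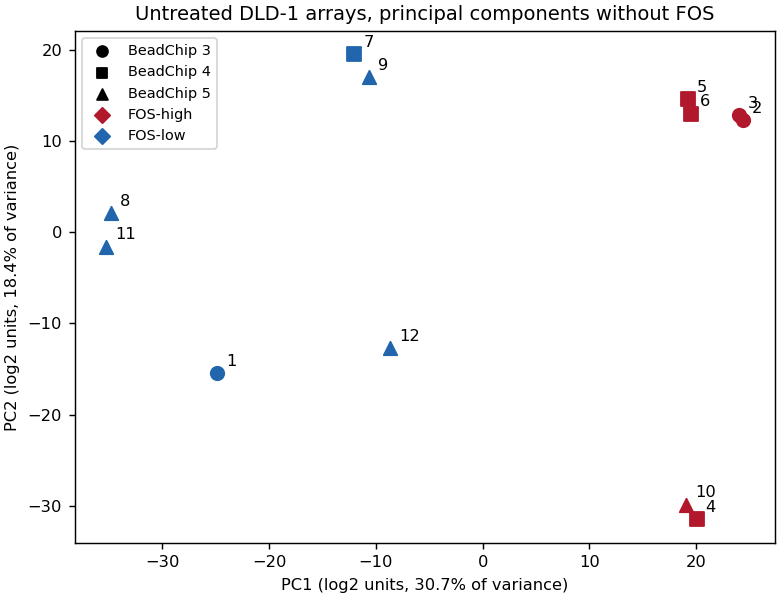
Each point is 1 untreated DLD-1 array, numbered, placed by its first and second principal component (log2 units, FOS left out), with colour for the FOS-high or FOS-low set and shape for the BeadChip. The sets separate along the first component (30.7% of variance), and FOS-high arrays 4 and 10 lie apart along the second (18.4%).

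The arrays were hybridised on 3 BeadChips of 12, called 3, 4 and 5 after their titles. FOS-high arrays numbered 2, 3 and 1 on them and FOS-low arrays 1, 1 and 4, so the sets were unevenly spread. A moderated F test for BeadChip among the 12 arrays (limma, Benjamini-Hochberg over 16027 genes) called 0 genes (0%). At an unadjusted p under 0.05 this test passed 1101 (6.87%). Its fit held no term for the FOS-high and FOS-low sets, so part of their gap stayed in its errors. With few arrays per BeadChip, unevenly spread over the sets, the 0 calls cannot exclude a BeadChip effect. Differences within each BeadChip are given below by size; their sign is fixed for genes without overlap. Probes detected per array were 17342 ± 643 (SD, n = 6) on FOS-high and 17822 ± 357 (SD, n = 6) on FOS-low arrays, within the range of 16012 to 19131 over all 36 arrays, where the median raw intensity lay between 97.2 and 121. With 6 arrays in a set, array number bounds the precision. In RNA from whole cultures, more RNA per cell and more cells carrying a transcript cannot be told apart.

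The arrays carried the markers of their labelled line. Of 22 colon epithelial markers listed, 18 passed the filter of detection on at least 6 arrays. DLD-1 arrays alone could carry a marker through that filter, so high detection there was partly set in advance. Of the 18, 15 to 18 were detected on FOS-high and 17 or 18 on FOS-low arrays, and 1 to 10 on untreated Jurkat arrays. Their mean log2 intensity was 9.42 to 9.48 on FOS-high, 9.27 to 9.46 on FOS-low and 4.70 to 5.53 on untreated Jurkat arrays. Of 17 T cell markers, 0 to 2 were detected on any of the 12 arrays, with a mean of 4.50 to 4.63 on FOS-high and 4.45 to 4.65 on FOS-low arrays, against 8.54 to 8.94 on untreated Jurkat arrays. Of the colon markers 2 lay higher and 1 lower on FOS-high arrays without overlap: ELF3, an epithelial transcription factor, by 0.81, KRT18, a keratin of simple epithelia, by 0.80 (its other probe gave −0.62), and TSPAN8, a tetraspanin, by −0.62 on the log2 scale.

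Metallothionein transcripts showed the largest differences in the table. Of the 7 measured members of the list, which holds metallothioneins and the zinc exporter SLC30A1, all 6 metallothioneins were called lower on the FOS-high arrays, and the median difference was −4.13. MT2A, the most widely expressed isoform, had log2 intensities of 8.02, 8.22 and 8.75 (lowest, median, highest) on FOS-high and 11.79, 13.42 and 13.91 on FOS-low arrays. Its means were 8.28 ± 0.27 and 13.26 ± 0.77 (SD, n = 6 each), a 31.5-fold difference. MT1X ran from 6.74 over 7.54 to 7.77 on FOS-high and from 10.90 over 13.10 to 13.72 on FOS-low arrays, 41.8-fold. For both genes every FOS-low array stood more than 2-fold above every FOS-high array, and array 1 was the lowest of the FOS-low set.

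MT1E was 18.6-fold and MT1A 17.5-fold lower on FOS-high arrays. A second probe for MT1E gave a difference of −1.09 in place of −4.22. MT1F, at 7.98 to 8.35 on FOS-high and 9.08 to 11.59 on FOS-low arrays, was 5.48-fold lower. MT1G was not above background on any FOS-high array. It was detected on all 6 FOS-low arrays, at 5.36, 8.85 and 10.22, which makes it at least 10.4-fold lower on FOS-high arrays. This bound takes the dim side at the lowest signal among detected probes of each array. The metallothionein pseudogenes MT1IP and MT1P3 gave −5.18 and −4.57. These genes are near-identical copies, so their probes cannot be assigned with certainty and the count of 6 is not 6 separate measurements.

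The metallothionein difference was smaller where array 1 stood for the FOS-low set. It is the only FOS-low array on BeadChip 3, and there the differences were −3.88 for MT1X, −3.68 for MT2A and −0.83 for MT1G, against −5.68, −5.58 and −4.72 on BeadChip 4 and −5.58, −4.73 and −4.31 on BeadChip 5. SLC30A1, which moves zinc out of the cell, overlapped: 5.84, 6.72 and 6.90 on FOS-high and 6.01, 8.10 and 11.06 on FOS-low arrays. Its difference was 0.21 within BeadChip 3, −3.95 within BeadChip 4 and −1.70 within BeadChip 5, so the FOS-low arrays differed widely among themselves. On the 6 CSE-treated DLD-1 arrays MT2A lay between 8.50 and 10.35 and MT1X between 7.72 and 9.51, below every FOS-low array. On untreated Jurkat arrays MT2A had a median of 8.42, near the FOS-high level.

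Among immediate early transcription factors other than FOS, 11 of 26 measured were called higher on the FOS-high arrays and 0 lower, with a median difference of 0.99. EGR1, a zinc finger factor, had the largest difference of any gene called higher, at 12.04, 12.27 and 12.53 on FOS-high and 7.91, 8.95 and 9.70 on FOS-low arrays. Its means were 12.28 ± 0.18 and 8.89 ± 0.75 (SD, n = 6 each), 10.5-fold apart, with FOS-high values tightly grouped and FOS-low values spread widely. JUNB, an AP-1 partner, ran from 7.98 over 8.56 to 9.17 on FOS-high and from 5.96 over 6.53 to 6.82 on FOS-low arrays, 4.51-fold. ATF3, a stress-induced repressor of the ATF family, stood at 8.80 to 9.29 against 5.45 to 8.01, 4.32-fold, and JUN at 7.61 to 7.85 against 6.06 to 6.79, 2.42-fold.

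The class was not uniform. BHLHE40, CSRNP1, HES1, ID1, ID2, KLF2 and KLF6 were also called higher, by 1.03 to 1.53 on the log2 scale. EGR2, KLF4 and MYC did not overlap but stayed under 2-fold, at 0.90, 0.95 and 0.86. FOSL1, another FOS family member, differed by 1.30 with overlapping values, and FOSB by 0.42, with detection on 3 FOS-high and 0 FOS-low arrays. EGR3 was detected on none of the 12 arrays, and NR4A2 gave 6.10 ± 0.27 and 6.10 ± 0.31 (SD, n = 6 each).

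Secreted and feedback genes listed beside the immediate early class also lay higher: 11 of 29 measured were called higher and 0 lower, with a median difference of 0.84. The list also holds genes of broader stress responses, such as GDF15, so it is not purely an immediate early set. GDF15, a secreted stress cytokine, stood at 12.42, 12.67 and 12.94 on FOS-high and 9.15, 9.62 and 10.38 on FOS-low arrays, 7.98-fold. IER3, a short-lived regulator of survival signalling, stood at 12.28 to 12.66 against 9.42 to 10.06, 6.89-fold. CCN1, a matricellular protein, was 6.40-fold and HBEGF, a ligand of the EGF receptor, 4.42-fold higher. The ERK phosphatases DUSP5 and DUSP6 were 3.98-fold and 3.41-fold higher, and ZFP36, which speeds the decay of short-lived mRNAs, 3.06-fold.

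**Figure D2:**
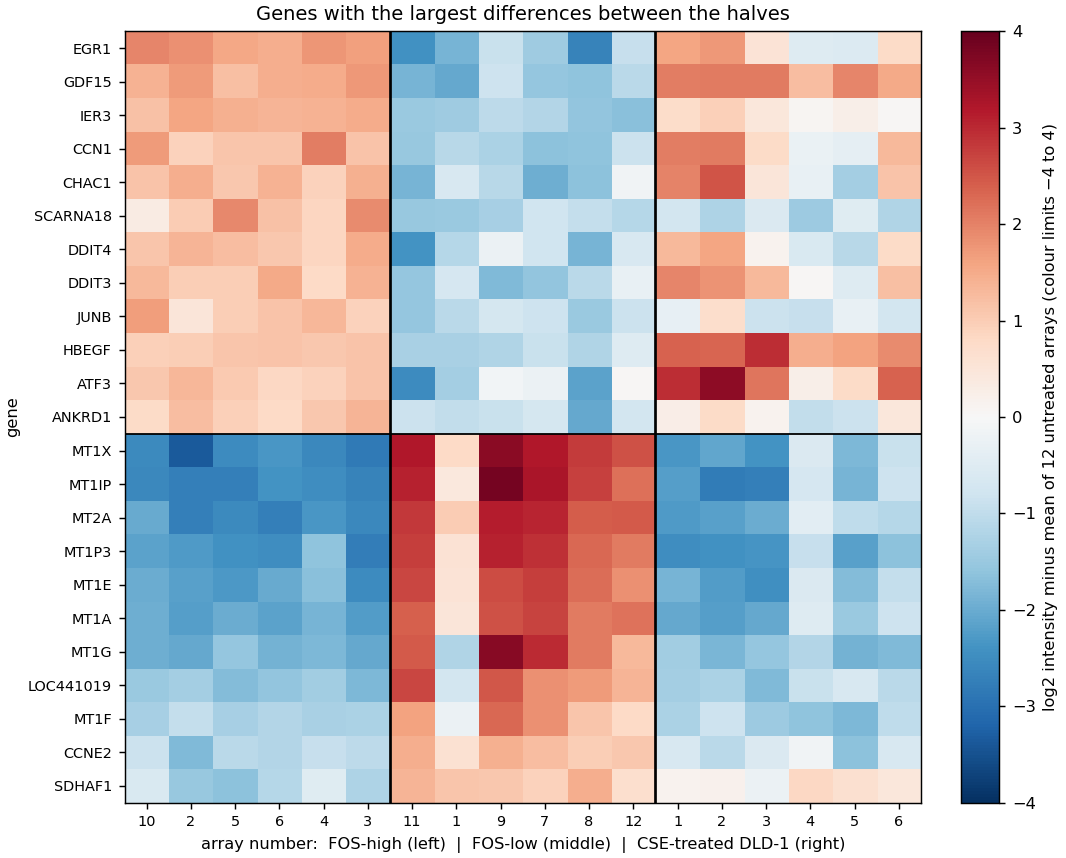
Rows are the 12 genes with the largest positive and 11 of the 12 with the largest negative difference among genes without overlap, columns are arrays, and colour gives log2 intensity minus the mean of the 12 untreated arrays. FOS-high arrays lie above every FOS-low array in the upper rows, array 1 is paler than the other FOS-low arrays in the metallothionein rows, and the 6 CSE arrays are mixed.

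Targets of ATF4, the transcription factor of the integrated stress response to amino acid shortage and misfolded protein, showed a smaller shift: 6 of 26 were called higher, 1 was called lower and the median difference was 0.41. Without FOS-low array 11 the median was 0.26. CHAC1, which degrades glutathione, stood at 7.51, 7.87 and 8.04 on FOS-high and 4.64, 5.22 and 6.46 on FOS-low arrays, 5.50-fold. DDIT3 (CHOP) was 5.00-fold, DDIT4, an inhibitor of mTORC1, 5.13-fold, and PPP1R15A (GADD34), which dephosphorylates eIF2alpha, 3.67-fold higher. The other genes called higher were SLC38A2 and CEBPB. ATF5, itself an ATF4 target, was the one called lower, at 7.08 ± 0.37 against 8.69 ± 0.58 (SD, n = 6 each). ERN1, the IRE1 sensor of the unfolded protein response, was 3.21-fold lower, and DNAJB9, an ER co-chaperone induced by that response, was 2.20-fold higher; these were the 2 called of 20 genes of that list.

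Smaller sets also held genes called higher, against 0.68% of all genes. Of 20 YAP and actin target genes 4 were: CCN1, CCN2, ANKRD1 and F3. The first 2 are also on the immediate early list. Of 20 p53 targets 2 were called higher, the cell cycle inhibitor CDKN1A (3.51-fold) and GADD45A (2.44-fold). That list as a whole shifted little, with a median difference of 0.10 and 12 of 20 positive. Of 26 hypoxia and glycolysis genes 2 were called higher, the glucose transporter SLC2A3 (3.52-fold) and VEGFA (2.49-fold). The median of this list was 0.04, with 15 of 26 positive.

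G1/S and DNA replication genes, which E2F factors turn on before S phase, lay lower on the FOS-high arrays: 24 of 27 had a negative difference, with a median of −0.70, but 3 were called lower. CCNE2 (cyclin E2) stood at 4.76, 5.46 and 5.67 on FOS-high and 7.13, 7.68 and 7.99 on FOS-low arrays, 4.85-fold. GINS2, a subunit of the replicative helicase, stood at 6.33, 6.75 and 8.07 against 8.38, 8.83 and 9.68, 3.66-fold, and the third was E2F2. MCM5 and RRM2 differed by −1.30 and −1.28 with overlapping values. FOS-high arrays 10 and 4, which lie apart from the others, had the highest values of the set for these genes: both 8.07 for GINS2 (6.33 to 6.91 on the other 4), 8.71 and 8.47 for MCM5 (7.13 to 7.66), and 7.47 and 7.38 for RRM2 (6.26 to 6.53). The lowest FOS-low values were 8.50 for MCM5 and 7.24 for RRM2. Overlap with the FOS-low arrays came from array 10 alone for MCM5 and from arrays 10 and 4 for RRM2. The list's median was −0.94 within BeadChip 3, −0.37 within BeadChip 4 and −0.22 within BeadChip 5. Mitotic genes had a median of −0.04 with 1 of 29 called lower, the survivin gene BIRC5.

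Probes of 1 gene could disagree. SDHAF1, an assembly factor of respiratory complex II, gave −2.21 with its brightest probe and −0.39 and −1.36 with 2 others. Of genes called higher with another kept probe, 12 of 25 had a second probe without overlap, and of those called lower 7 of 21. Over all genes, by their brightest probe, 2.2% lay higher and 2.14% lower without overlap.

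Small structural RNAs without a poly(A) tail, such as spliceosomal, Y and vault RNAs, lay partly higher on the FOS-high arrays: 8 of 24 measured structural RNAs were called higher and 0 lower, with a median of 0.43. TERC, the telomerase RNA, stood at 7.87 to 9.08 against 5.88 to 7.40, 3.86-fold, and the minor spliceosomal RNA RNU4ATAC at 7.24 to 7.89 against 5.88 to 6.43, 2.65-fold. Among small nucleolar and Cajal body RNAs, outside that list, 6 of 142 tested by name were called higher and 3 lower. Over all genes the shares were 0.68% and 0.618%. SCARNA18 was 5.24-fold higher and SNORA24 3.74-fold lower. Histone genes, many of whose mRNAs also lack the tail, had 0 of 17 called higher and 1 lower, H2BC21 (−1.12), with a median of −0.18. The part of such RNAs in the other differences was not tested.

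Large housekeeping classes gave little. Of 46 ribosomal protein, 36 respiratory chain and 31 proteasome genes, 0 were called in either direction, with medians of 0.005, −0.02 and −0.13. Of 24 heat shock chaperones 1 was called lower, HSPA1B (9.43 ± 0.19 against 10.88 ± 0.30, SD, n = 6 each), with a list median of −0.21. HSPA6 and BCL2L1, which the study's title concerns, differed by −0.29 and 0.17 with overlap.

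**Figure D3:**
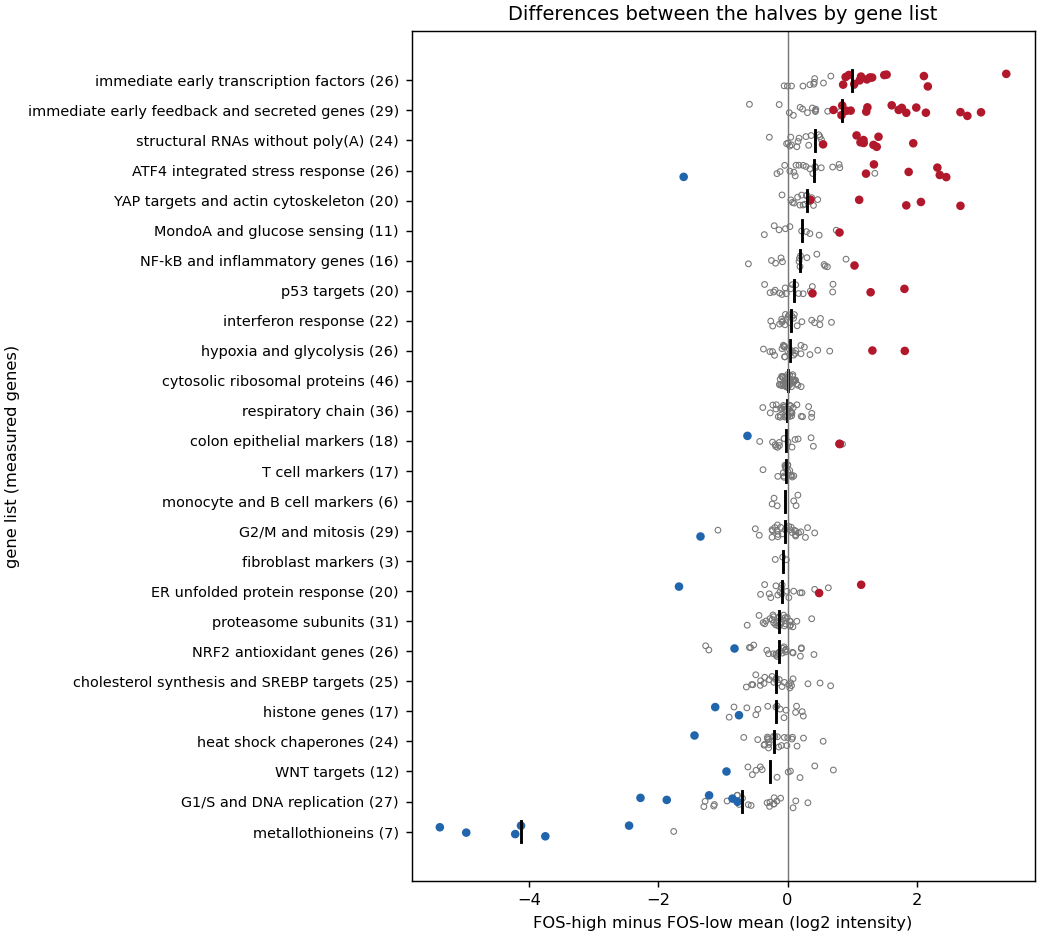
Each row is a gene list with its number of measured genes, each point 1 gene's FOS-high minus FOS-low mean (log2 intensity), filled where the 6 and 6 values do not overlap, and the bar the list's median. Metallothioneins have a median of −4.13, the 2 immediate early lists 0.99 and 0.84, and ribosomal proteins 0.005.

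The CSE-treated DLD-1 arrays are a labelled group, but their controls are the 12 ranked arrays, so CSE changes are set beside the differences above and are no independent comparison. With CSE 296 genes (1.85%) rose and 394 (2.46%) fell in DLD-1 (limma, 36 arrays, Benjamini-Hochberg adjusted p under 0.05). Of the 109 genes called higher 12 rose and 6 fell, and of the 99 called lower 7 rose and 2 fell. GDF15 rose by 1.82 ± 0.46 (SE, adjusted p = 0.0137), HBEGF by 2.10 ± 0.45 (0.0032) and ATF3 by 2.01 ± 0.52 (0.0158), in log2 units. EGR1 gave 0.59 ± 0.78 (adjusted p = 0.81) and JUNB −0.41 ± 0.40 (0.703). HSPA1B, lower on FOS-high arrays, rose by 3.67 ± 0.40 (adjusted p = 6.22e-08). TERC, higher on FOS-high arrays, fell by 1.29 ± 0.32 (adjusted p = 0.0118).

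The spread of the controls enters these results. The highest FOS-low value of EGR1 was 9.70 and the lowest FOS-high value 12.04, and the CSE arrays ran from 10.03 to 12.31, so all of them lay above the FOS-low arrays. For 37 of the 109 genes, all 6 CSE arrays lay above every FOS-low array, and for 37 they all lay below every FOS-high array. For the 99 genes the counts were 23 (all CSE arrays below every FOS-low array) and 40 (all above every FOS-high array). No such share was computed over all genes. The called genes were also chosen for a gap between the same FOS-high and FOS-low arrays, which makes lying clear of either set easier. These counts therefore describe positions only and do not set the called genes apart from others.

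**Figure D4:**
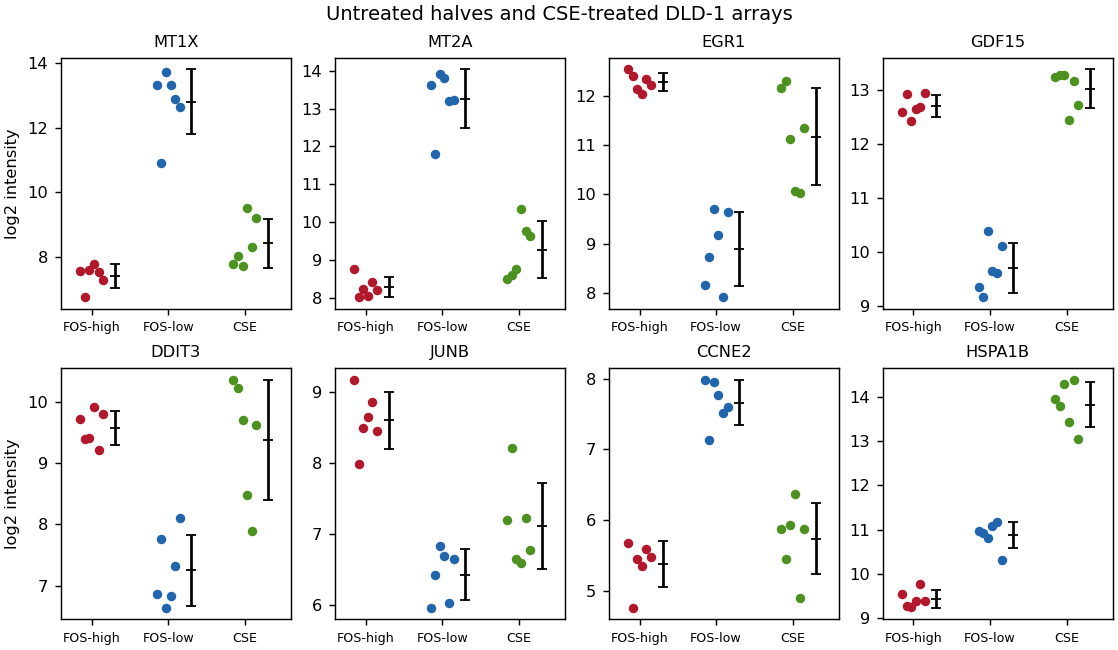
Each panel shows 1 gene's log2 intensity on the 6 FOS-high, 6 FOS-low and 6 CSE-treated DLD-1 arrays, each point 1 array, with mean and SD beside them, and each panel has its own axis. EGR1 on CSE arrays spans 10.03 to 12.31, MT2A lies at 8.50 to 10.35, and HSPA1B at 13.05 to 14.39 is above all untreated arrays.

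In Jurkat cells CSE raised 1329 genes (8.29%) and lowered 1854 (11.6%) at an adjusted p under 0.05 (limma). Jurkat arrays took no part in the ranking, but the fit estimated each gene's variance from all arrays of the series. The gap between FOS-high and FOS-low arrays therefore widens the Jurkat errors of the called genes. The counts below are thus not independent of the ranking. A gene that did not pass, metallothioneins included, may have failed through the spread within DLD-1. Of the 109 genes called higher in DLD-1, 24 (22%) rose and 9 (8.26%) fell with CSE in Jurkat; of the 99 called lower, 1 (1.01%) rose and 9 (9.09%) fell. Of the immediate early transcription factors 6 rose and 2 fell, of the feedback and secreted genes 7 rose and 3 fell, and of the ATF4 genes 6 rose and 1 fell. ATF3 rose by 2.18 ± 0.52 (SE, adjusted p = 0.0019), DDIT3 by 1.87 ± 0.48 (0.00401), PPP1R15A by 1.98 ± 0.40 (0.000266) and CDKN1A by 1.93 ± 0.47 (0.00226). MYC, higher on FOS-high DLD-1 arrays, fell by 1.99 ± 0.19 (adjusted p = 3.76e-10). EGR1 gave 0.05 ± 0.78 (adjusted p = 0.978). Of the 7 genes of the metallothionein list 0 passed, and 0 had an unadjusted p under 0.05 (limma); MT2A gave 0.04 ± 0.76 (adjusted p = 0.983).

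The 12 untreated Jurkat arrays were ranked by the same probe, again as a description. Without overlap 228 genes (1.42%) lay higher and 249 (1.55%) lower. Of the genes called higher in DLD-1, 9 of 109 were among the 228 (3.95% of these) and 3 lay in the opposite direction, and of those called lower 16 of 99 were among the 249 (6.43%) and 0 opposite. Genes in common included EGR1 (3.35 in Jurkat), ATF3 (1.71), CHAC1 (1.68) and MT1E (−1.17), and the 3 in the opposite direction were ID1 (−1.44), HES1 (−1.35) and KLF2 (−0.77). Of the immediate early transcription factors 3 lay higher and 4 lower in Jurkat without overlap, with a median of −0.21. The cell line field of 1 untreated Jurkat array reads DLD-1 while its title and source name say Jurkat. On every untreated Jurkat array, this one included, 16 or 17 of 17 T cell markers were detected. The mean of the colon markers was at most 5.53 on these arrays, so the array was kept as Jurkat. Without this array 1301 genes rose and 1820 fell with CSE in Jurkat.

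**Figure D5:**
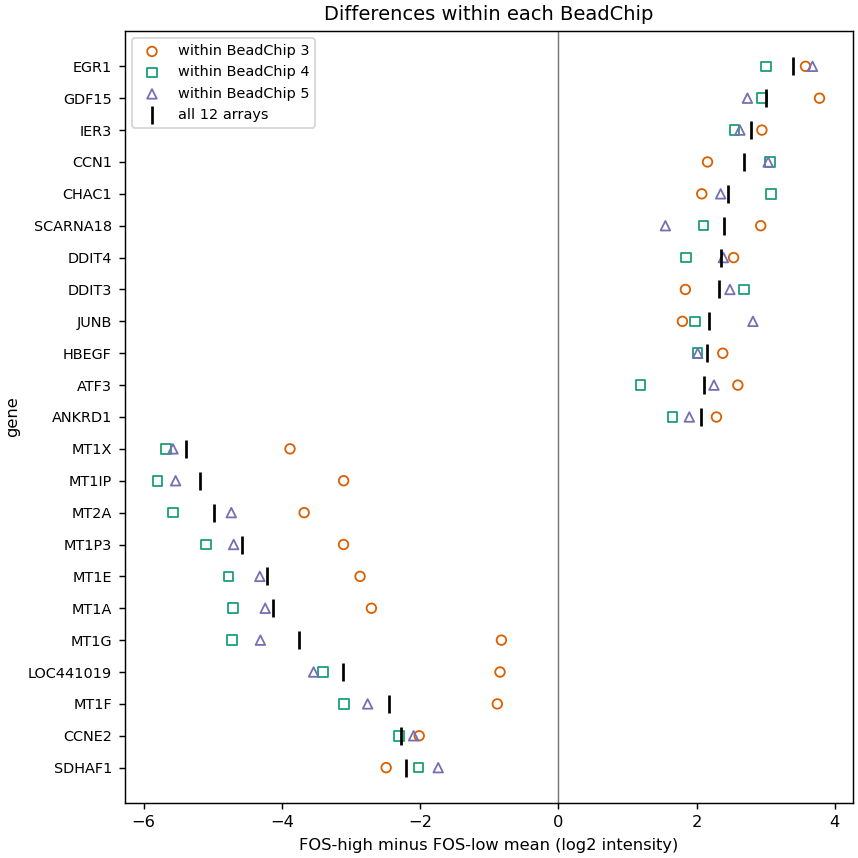
Rows are the 12 genes with the largest positive and 11 of the 12 with the largest negative difference, points are the FOS-high minus FOS-low differences within BeadChips 3, 4 and 5 (log2 intensity) and bars the difference over all 12 arrays. Metallothionein differences are smallest within BeadChip 3, −0.83 for MT1G, and the sign is fixed by the choice of genes without overlap.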

How the data were processed

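RNA of 36 samples was measured on Illumina bead arrays. Values came from a table deposited by the authors, with the mean bead intensity of 47323 probes (per the file headers, without normalization) and with a detection p-value per probe and array deposited beside it. A second deposited table holds the authors' normalized intensity on a linear scale, used as an alternative. For the software behind both: not given in the sources used here.

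Background was corrected with limma's neqc (limma 3.58.1, R 4.3.3; detection p-values, offset 16), followed by quantile normalization and log2. Probes with a detection p under 0.05 on at least 6 arrays were kept (22612), and the brightest probe stood for each gene (3974 genes had several). Of the 16028 genes, 10902 were found under their symbol in the RefSeq name table of GRCh38.p14, 1848 under an outdated symbol, 1147 through the gene number, and 2131 keep the name in the file.

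Differences between FOS-high and FOS-low arrays carry no test. Labelled groups were compared with limma, a mean for each of 4 groups over 36 arrays, with Benjamini-Hochberg adjustment over all genes, which was checked on simulated data. Replicate numbers pair nothing. The members, gene lists and tests were chosen with earlier results of these data known. Named genes were the 12 largest non-overlapping differences in each direction, up to 4 per list with the largest differences, the immediate early genes, HSPA6 and BCL2L1. One gene of the rule is not reported here. SLC30A1, SLC38A2, CEBPB, ATF5, E2F2 and SNORA24 were named after their values were seen. Alternatives changed the background correction, normalization, filter, probe choice, BeadChip treatment, fold limit and arrays used.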

Additional observations from a re-analysis of the deposited data

Results flagged for a closer look

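For each of the 24 genes with the largest differences and HSPA6 and BCL2L1, the gap between the most extreme array and its nearest neighbour was divided by the range of its group, in 78 groups of 6 arrays (FOS-high, FOS-low and CSE-treated DLD-1). By Dixon's criterion 4 values were flagged. Chance alone flags about 1 in 20 groups, so 4 flags in 78 groups are about as many as chance would give.

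Of the 4, 2 belonged to FOS-low array 1: MT2A at 11.795, with the nearest FOS-low array at 13.199 (gap 0.664 of the range), and MT1A at 11.89, with the nearest at 13.505 (0.723). Metallothionein probes cannot be assigned with certainty, so these are not 2 separate flags. ANKRD1, a YAP target, was 4.7451 on FOS-low array 8, with the nearest at 5.8173 (0.797). CCNE2 was 4.7601 on FOS-high array 2, with the nearest at 5.342 (0.641). The cause was not tested.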

How the results depend on the processing

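No gene that was named by the rule and called higher or lower reversed its direction under the alternatives run. Leaving out arrays, comparing within a BeadChip or changing the fold limit could not reverse it, because the 6 and 6 values did not overlap. Quantile normalization alone and the authors' values also left the counts without overlap at 353 and 343. The absence of reversals is therefore no sign of robustness. With quantile normalization and no background correction, 48 genes were called higher and 24 lower in place of 109 and 99, and the medians were 0.72 for immediate early transcription factors, 0.56 for feedback and secreted genes and 0.17 for structural RNAs. With the authors' normalized values they were 42 and 20 genes, and 0.63, 0.52 and 0.15. A 1.5-fold limit called 244 and 241. Detection on all 12 arrays called 60 lower, with medians of 1.12 (transcription factors) and 0.55 (structural RNAs). Without a detection filter the metallothionein median was −3.43. Adjusting for BeadChip gave 535 and 546 genes without overlap. That fit also held the FOS-high and FOS-low sets. It removed spread within the sets and kept their difference, which by itself favours separation. Within BeadChip 3 the medians were −2.71 for metallothioneins and 0.56 for structural RNAs, within BeadChip 4 −0.049 for heat shock and −0.37 for G1/S genes, and within BeadChip 5 1.04 for feedback genes, −0.22 for G1/S and 0.60 for structural RNAs. Leaving out 1 array in turn gave 101 to 130 higher, 85 to 121 lower and medians of 0.35 to 0.48 for structural RNAs and 0.26 to 0.51 for ATF4 genes. Without the 2 arrays at the rank boundary the ATF4 median was 0.24. Without FOS-high arrays 4 and 10, an alternative chosen after seeing the data, 161 were called higher and 123 lower, 720 and 676 did not overlap, and the structural RNA median was 0.34. The BeadChip test called 1 gene with quantile normalization alone and 1 with the authors' values. No paired analysis was possible because the labels carry no replicate numbers and the differences have no test. The cause of these shifts was not tested. The sets of 6 were made from 1 probe, overlap depends on the number of arrays, and dim probes carry only bounds.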
